A study of Mus musculus with 18 samples.

Results

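The 39 genes described here encode SR proteins, hnRNPs, CLK kinases and other splicing factors, and were matched by Entrez identifier to mouse symbols among the 22078 genes of the deposited tables. They comprise 10 SR proteins, 2 Tra2 proteins, 4 CLK kinases, 10 hnRNPs, 2 PTB proteins, 4 U1 snRNP and U1-associated proteins, 5 speckle and RBM proteins and 2 DEAD-box helicases. RNA was sequenced from mouse cortical astrocytes in culture, transfected with a plasmid and given 8 µM of deschloroclozapine (DCZ) 7 days later for 90 min. The plasmid encoded a designer receptor activated by DCZ (a DREADD), namely hM3Dq, rM3Ds or hM4Di, which couple to Gq, Gs and Gi, or a fluorescent protein as control. At 90 min the groups were hM3Dq with DCZ, rM3Ds with DCZ, hM4Di with DCZ and EGFP with DCZ. At 3 days the groups were hM3Dq with DCZ and mCherry with DCZ, both kept in medium without ligand after the 90 min. Each of the 6 groups had 3 libraries. Control cells received the ligand too, and no group here carried a receptor without it. The plasmid's promoter and the share of transfected cells are not given in the sources used here, and the labels do not say whether numbered replicates were separate cultures, so p-values measure only the spread between libraries.

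SR proteins bind exonic enhancers and recruit the spliceosome, hnRNPs mostly bind silencers and compete with them, and the U1 snRNP marks the 5′ splice site. CLK kinases phosphorylate the arginine- and serine-rich tails of SR proteins and so release them from nuclear speckles, the stores of splicing factors that are built on Son and Srrm2. Many of these genes limit their own mRNA through poison exons or retained introns, whose transcripts are degraded by nonsense-mediated decay or held in the nucleus. In glia, Ptbp1 restrains exons that are typical of neurons. The gene-level counts used here do not tell the transcripts of a gene apart.

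All 39 genes were expressed and passed the filter on low counts in each of the 8 comparisons. Their levels ran from 23.6 CPM (counts scaled by the total of each library) for Ptbp2 in EGFP 1 to 1448 CPM for Ddx5 in mCherry 3. Per kilobase of the longest transcript, the 3-day levels were highest for Hnrnpa2b1, at 405 ± 27.1 in hM3Dq and 451 ± 11.98 CPM per kilobase in mCherry cells, and lowest for Ptbp2, at 13.0 ± 1.52 in hM3Dq and 17.9 ± 3.08 CPM per kilobase in mCherry cells (SD, n = 3 each). At 3 days the 39 genes together held 1.00 to 1.06% of all counts in hM3Dq libraries and 1.16 to 1.33% in mCherry libraries. At 90 min the shares were 0.938 to 0.979% in hM3Dq, 0.848 to 0.959% in rM3Ds, 0.827 to 0.896% in hM4Di and 0.809 to 0.960% in EGFP libraries.

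Library totals were 16067367 to 25222365 counts at 90 min and 16580509 to 19691525 counts at 3 days. Library mCherry 3 stood apart at 3 days, with a loading of 0.90 on the first principal component, which held 56.7% of the variance. Its deviations from the gene means ran with GC content across genes (Spearman rho -0.66 over all genes tested, against 0.47 in mCherry 1 and 0.39 in mCherry 2), and the 39 genes lay 0.24 (median, log2) above their means in it. At 90 min EGFP 1, rM3Ds 2 and rM3Ds 3 stood apart on a first component with 52.5% of the variance. Main results are therefore given with and without these libraries. Leaving out those of 90 min keeps only rM3Ds 1 in the rM3Ds group. The sum of 28 cell cycle genes was 1139 CPM in EGFP 1, 745 CPM in rM3Ds 2 and 722 CPM in rM3Ds 3. In the other 90-min libraries it was 223 to 468 CPM, with 226 CPM in rM3Ds 1. The part of this difference in the results was not tested. The astrocyte markers Sox9 (248 to 297 CPM at 3 days) and Slc1a3 (149 to 186 CPM) were expressed in the 3-day libraries, whereas Gfap (1.70 to 3.81 CPM) and S100b (1.08 to 1.55 CPM) were near 0. The label of astrocyte thus rests on some of its markers and not on others. The 9 fibroblast and mural markers summed to 2604 to 3051 CPM in hM3Dq and 2397 to 2783 CPM in mCherry libraries, above the 14 astrocyte markers, at 1129 to 1186 CPM in hM3Dq and 1076 to 1168 CPM in mCherry libraries.

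**Figure D1:**
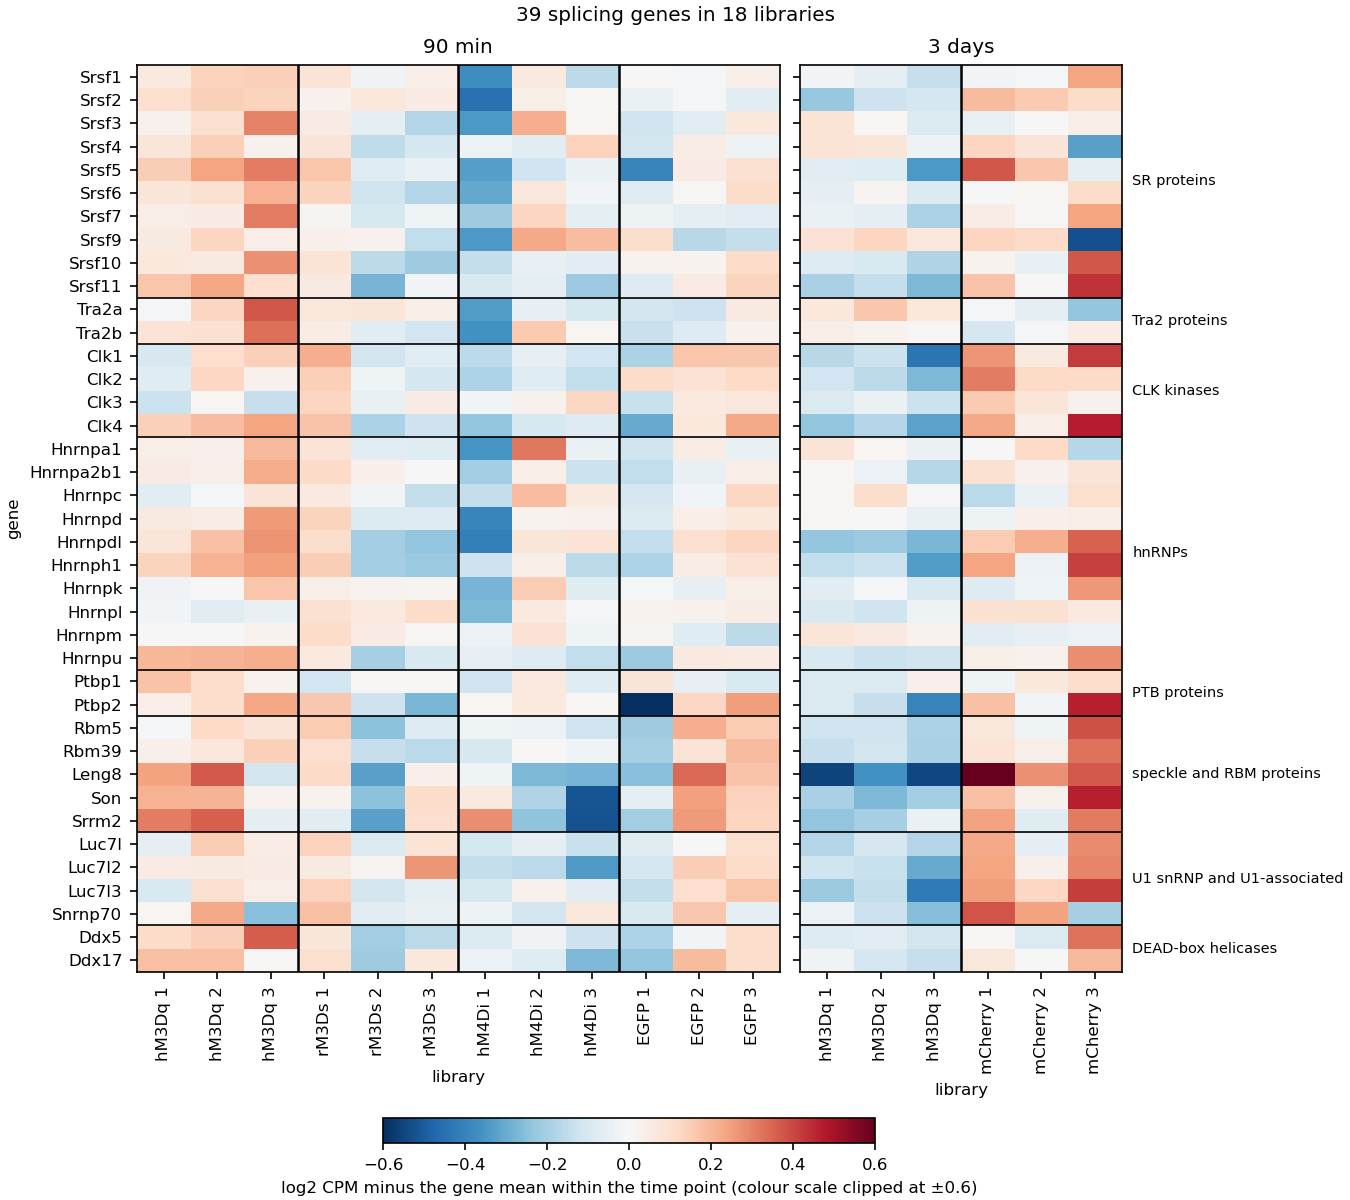
Level of each of the 39 genes (rows, by role) in each library (columns), as log2 CPM (here with TMM factors) minus the gene's mean within its time point; red is above and blue below that mean. At 3 days most rows are blue in the 3 hM3Dq libraries and red in the mCherry libraries, most deeply in mCherry 3, while at 90 min hM4Di 1 and EGFP 1 hold many blue cells.

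The comparison of hM3Dq with mCherry at 3 days asks which genes differ after the ligand has been gone for 3 days. Most of the splicing genes were lower in hM3Dq cells: 31 of 39 had a log2 fold change below 0, with a median of -0.23, against -0.01 over all 12807 genes tested. In 25 of 39 genes (64.1%) every hM3Dq library lay below every mCherry library, as did 16.1% of all genes tested. The opposite order held for 2, Tra2a and Hnrnpm (9.32% of all genes tested). The 39 genes were chosen with earlier results of these data known, so contrasts with all genes are descriptive and not an independent test. No gene passed edgeR's quasi-likelihood test with all 6 libraries, however, neither among the 39 nor among all genes (0.0%; a gene counted as called where its p, adjusted by Benjamini-Hochberg, was below 0.05). Unadjusted p was below 0.05 in 18 of the 39, all of them lower in hM3Dq cells, and in 1540 of all genes (583 higher and 957 lower). In bulk RNA, fewer cells of a type and less RNA per cell cannot be told apart.

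Leng8 had the largest difference among the 39 genes. It had 101, 116 and 101 CPM in hM3Dq libraries, against 269, 183 and 196 CPM in mCherry libraries. The groups did not overlap, and mCherry 1 was the highest. Its log2 fold change of -0.996 ± 0.15 (SE) gave an adjusted p of 0.199 in edgeR. Hnrnpdl, which encodes an hnRNP D-like protein, had 148, 149 and 143 CPM in hM3Dq libraries, against 197, 204.5 and 226 CPM in mCherry libraries. Again the groups were apart, with little spread among hM3Dq libraries. The log2 fold change of Hnrnpdl was -0.49 ± 0.09, with an edgeR adjusted p of 0.205. For Luc7l3, a U1-associated protein that acts at 5′ splice sites, levels were 139, 147 and 120.3 CPM in hM3Dq libraries, against 197, 179 and 220.0 CPM in mCherry libraries, a log2 fold change of -0.53 ± 0.11 (edgeR adjusted p = 0.228). Every mCherry library was thus above every hM3Dq library for these 3 genes.

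Without mCherry 3 the same test called 15 of 39 genes, all lower in hM3Dq cells, where 5.58% of the 12929 genes then tested were called lower and 4.15% higher. The median log2 fold change of the 39 was then -0.16 (0.01 over all genes), with 34 below 0. With offsets for GC content and all 6 libraries, 9 of 39 were called, all lower (1.35% of all genes lower). DESeq2's Wald test with all 6 libraries called 4 of 39, all lower (0.648% of all genes lower, 83 genes, with 73 higher), namely Clk4, Hnrnpdl, Luc7l3 and Leng8. The number called therefore depends on how the third control library is handled, whereas the median stayed below 0 with and without it. The calls also depend on mCherry 1: with both mCherry 1 and mCherry 3 left out, so that a single control library remained and was assumed to vary like the hM3Dq libraries, 4 were called (Srsf2, Hnrnpdl, Leng8 and Snrnp70).

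**Figure D2:**
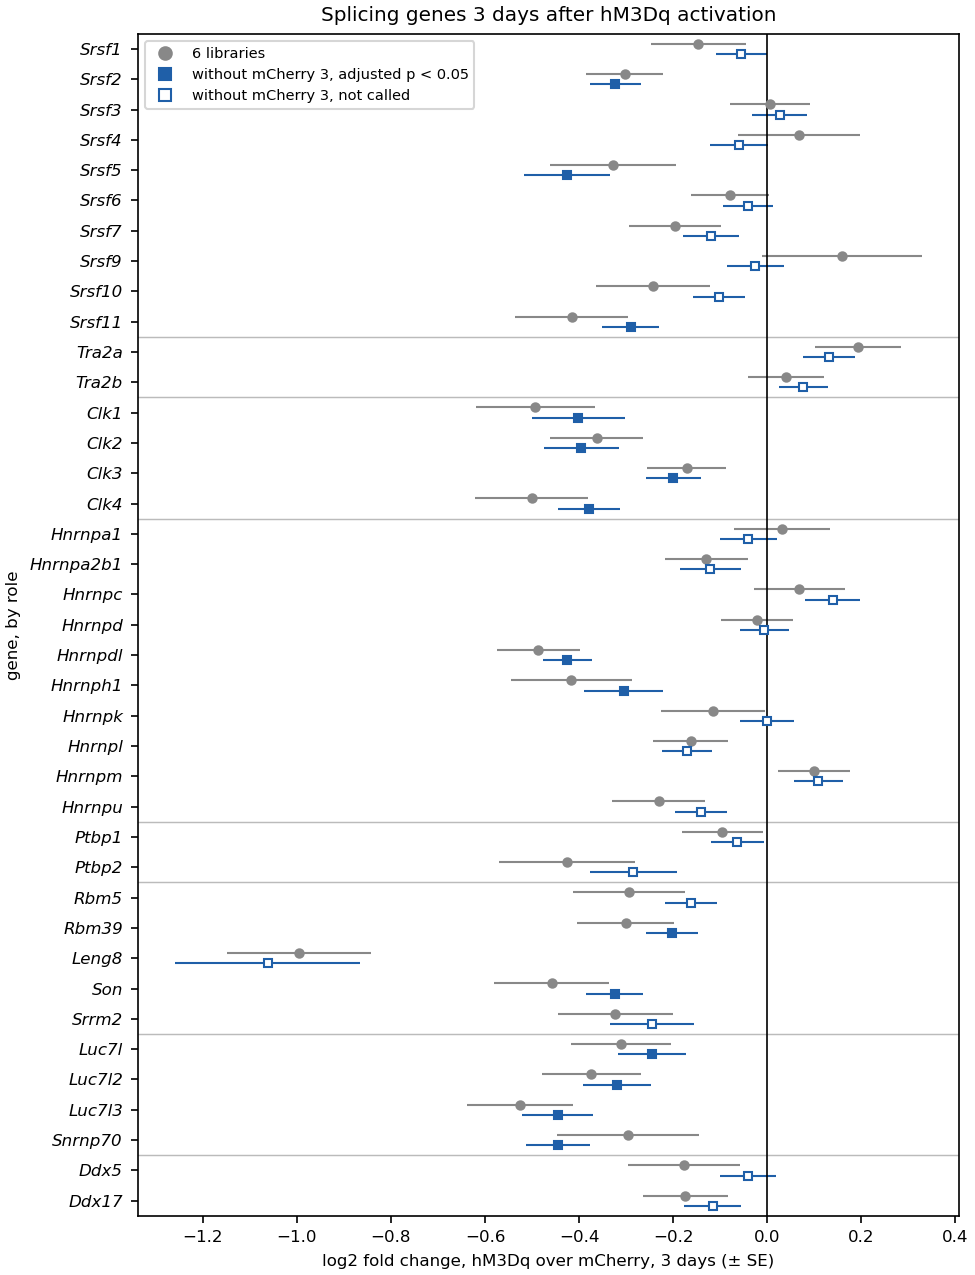
Log2 fold change (± SE) of hM3Dq over mCherry at 3 days for the 39 genes, grouped by role, with all 6 libraries (grey) and without mCherry 3 (blue; filled where the edgeR adjusted p is below 0.05). The 15 filled squares all lie left of 0, and Leng8 lies farthest left at -0.996 and -1.06.

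All 4 CLK kinases were called lower in hM3Dq than in mCherry cells without mCherry 3. Clk4 had 77.2, 80.6 and 72.5 CPM in hM3Dq libraries, against 109, 95.1 and 129 CPM in mCherry libraries. Clk2 had 31.9, 30.9 and 28.5 CPM in hM3Dq libraries, against 43.6, 38.1 and 38.1 CPM in mCherry libraries. For both genes the groups did not overlap, and the control spread was wider for Clk4 than for Clk2. Without mCherry 3, Clk4 had a log2 fold change of -0.38 ± 0.07 (edgeR adjusted p = 0.00289) and Clk2 one of -0.40 ± 0.08 (edgeR adjusted p = 0.00642). Clk1, at 133, 137 and 110.0 CPM in hM3Dq libraries and 184, 158 and 204 CPM in mCherry libraries, had a log2 fold change of -0.40 ± 0.10 without mCherry 3. Clk3 was the least different of the 4, at -0.20 ± 0.06. Clk1 and Clk3 passed narrowly, with edgeR adjusted p of 0.0409 and 0.0445. Without mCherry 3, Clk3 was not called by DESeq2's test, with the replicate number as a block or with GC offsets.

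Among the 10 SR proteins, 3 were called lower in hM3Dq than in mCherry cells without mCherry 3: Srsf2, Srsf5 and Srsf11. Srsf2, which binds exonic enhancers and is a classical marker of speckles, had 144, 154 and 155.5 CPM in hM3Dq libraries, against 196, 189.9 and 185 CPM in mCherry libraries. The groups were apart, and the libraries within each lay close together, mCherry 3 being the lowest control. Its log2 fold change was -0.30 ± 0.08 with all libraries and -0.32 ± 0.05 without mCherry 3 (edgeR adjusted p = 0.263 and 0.00239). Srsf11 had 179, 186 and 169.9 CPM in hM3Dq libraries, against 236, 209 and 283 CPM in mCherry libraries. Here mCherry 3 was far above the other controls, so that the log2 fold change was -0.42 ± 0.12 with it and -0.29 ± 0.06 without it (edgeR adjusted p = 0.277 and 0.00839). Srsf5, the SR protein gene with the highest level per kilobase, had 468, 467 and 385 CPM in hM3Dq libraries, against 649.6, 557 and 483 CPM in mCherry libraries. Its hM3Dq 3 was the lowest library, and mCherry 3 lay just above hM3Dq 1. The other 7 SR proteins were not called, with log2 fold changes between -0.12 and 0.03 without mCherry 3.

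The Tra2 proteins, which bind purine-rich enhancers together with SR proteins, did not follow the CLK kinases. Tra2a had 108, 116 and 108 CPM in hM3Dq libraries, against 105.0, 101 and 89.9 CPM in mCherry libraries. All hM3Dq libraries lay above the controls, but the log2 fold change was 0.19 ± 0.09 with mCherry 3 and 0.13 ± 0.06 without it, and neither was called in edgeR (adjusted p 0.152 without mCherry 3). Tra2b differed by 0.04 with all libraries and 0.08 without mCherry 3.

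All 4 U1 snRNP and U1-associated genes were called lower in hM3Dq than in mCherry cells without mCherry 3. Snrnp70, which encodes the U1-70K protein, had 271, 253 and 232 CPM in hM3Dq libraries, against 368, 333 and 247 CPM in mCherry libraries. Its mCherry 3 lay inside the hM3Dq range and the 2 other control libraries far above it. The log2 fold change was therefore -0.30 ± 0.15 with mCherry 3 and -0.45 ± 0.07 without it (edgeR adjusted p = 0.00134 without). Without mCherry 3, Luc7l3 was at -0.45 ± 0.07, Luc7l2 at -0.32 ± 0.07 and Luc7l at -0.24 ± 0.07 (edgeR adjusted p = 0.00389, 0.0148 and 0.0478). Luc7l thus passed narrowly, and was not called there by DESeq2's test or with the replicate number as a block. Luc7l2, at 301, 298 and 264 CPM in hM3Dq libraries and 394, 338 and 408 CPM in mCherry libraries, had the highest level per kilobase of the 3 Luc7-like genes, 67.6 in hM3Dq and 89.3 CPM per kilobase in mCherry cells.

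Of the 10 hnRNPs, Hnrnpdl and Hnrnph1 were called lower in hM3Dq than in mCherry cells without mCherry 3. Hnrnpdl had the smallest p of all 39 genes there, with a log2 fold change of -0.42 ± 0.05 (edgeR adjusted p = 0.000342), a level 25.5% below that of mCherry cells. Hnrnph1, which binds runs of G, had 317, 320.3 and 277 CPM in hM3Dq libraries, against 421, 347 and 475 CPM in mCherry libraries. The groups were apart, but mCherry 2 lay close to hM3Dq 2, and the log2 fold change of -0.31 ± 0.08 had an edgeR adjusted p of 0.0437. Hnrnpl, a regulator that binds CA repeats, was just short of the threshold at -0.17 ± 0.05 (edgeR adjusted p = 0.0515). The 3 hnRNPs with the highest levels per kilobase differed little. Without mCherry 3, Hnrnpa2b1 was at -0.12 ± 0.06, Hnrnpk at -0.0008 ± 0.06 and Hnrnpa1 at -0.04 ± 0.06. Hnrnpc and Hnrnpm lay above 0 at 0.14 ± 0.06 and 0.11 ± 0.05, neither called, although Hnrnpc was called higher without mCherry 3 once the replicate block was added. Of the PTB proteins, Ptbp1, the form typical of glia, was at -0.06 ± 0.06 and its neuronal paralog Ptbp2 at -0.29 ± 0.09 (edgeR adjusted p = 0.0735), also not called.

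Among the 5 speckle and RBM genes, Son and Rbm39 were called lower in hM3Dq than in mCherry cells without mCherry 3. Son had 465, 441 and 461 CPM in hM3Dq libraries, against 613, 551 and 750.5 CPM in mCherry libraries. The hM3Dq libraries were close together and all below the controls, and the log2 fold change was -0.46 ± 0.12 with mCherry 3 and -0.32 ± 0.06 without it (edgeR adjusted p = 0.263 and 0.00443). Rbm39, a splicing factor related to U2AF, was at -0.20 ± 0.05 without mCherry 3 (edgeR adjusted p = 0.0292). Leng8 kept the largest difference, -1.06 ± 0.20, but was not called by edgeR without mCherry 3 (adjusted p = 0.059). Srrm2 and Rbm5 were at -0.24 ± 0.09 and -0.16 ± 0.06, not called. The DEAD-box helicases Ddx5 and Ddx17, which unwind RNA for many splicing and transcription complexes, were at -0.04 ± 0.06 and -0.12 ± 0.06 without mCherry 3, also not called.

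**Figure D3:**
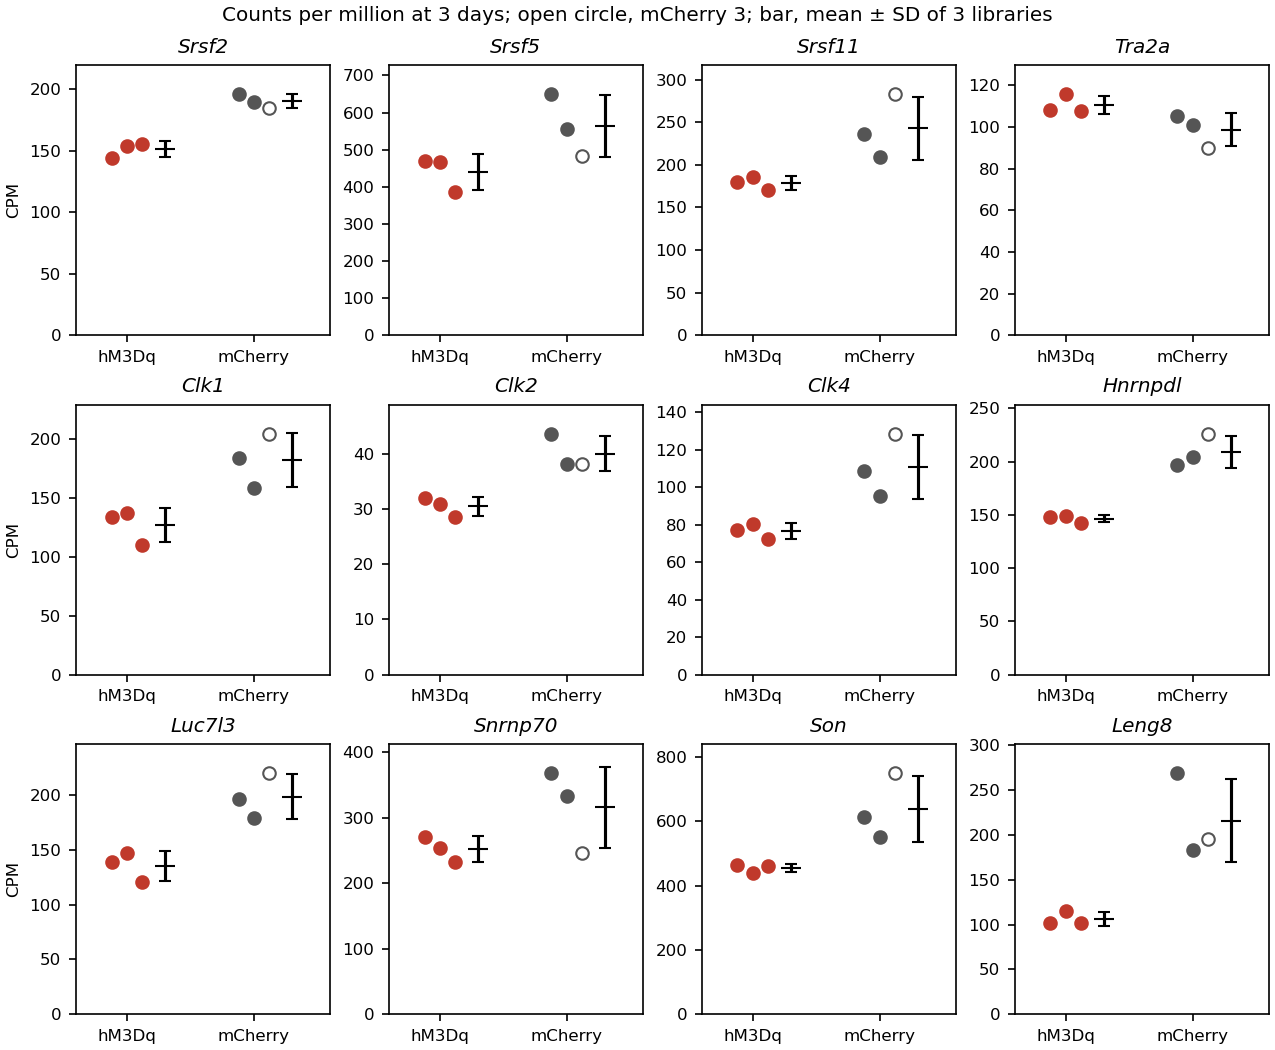
CPM of 12 of the 39 genes in each 3-day library, hM3Dq left of mCherry; circles are libraries (open, mCherry 3) and bars give the mean ± SD of 3 libraries. For Leng8, Hnrnpdl and Clk4 all 3 hM3Dq circles lie below all mCherry circles, for Snrnp70 the open circle falls among the hM3Dq values, and Tra2a shows the opposite order.

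Promoter sequences are shown for Hnrnpdl, which had the smallest p without mCherry 3, and for Clk4 and Tra2a, the 2 of 37 genes with a promoter entry that hold a full cAMP response element, the site of the CREB family. They are from RefSeq, build GRCm38.p6, and run from 250 bases before to 50 bases after the start. The promoter sequences lie at chr5:100039173-100039472 (minus strand) for Hnrnpdl, chr11:51262864-51263163 (plus strand) for Clk4 and chr6:49264003-49264302 (minus strand) for Tra2a. Capitals mark the response element TGACGTCA, the GC box GGGCGG and the CCAAT box, each on either strand, with no overlaps among those marked.
Hnrnpdl: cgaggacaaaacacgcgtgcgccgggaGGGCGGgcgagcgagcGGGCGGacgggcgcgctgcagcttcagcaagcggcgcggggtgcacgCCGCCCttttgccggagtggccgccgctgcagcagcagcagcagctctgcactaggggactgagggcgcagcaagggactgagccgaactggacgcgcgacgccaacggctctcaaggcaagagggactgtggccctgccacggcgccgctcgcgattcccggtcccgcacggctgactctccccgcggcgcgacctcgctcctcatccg
Clk4: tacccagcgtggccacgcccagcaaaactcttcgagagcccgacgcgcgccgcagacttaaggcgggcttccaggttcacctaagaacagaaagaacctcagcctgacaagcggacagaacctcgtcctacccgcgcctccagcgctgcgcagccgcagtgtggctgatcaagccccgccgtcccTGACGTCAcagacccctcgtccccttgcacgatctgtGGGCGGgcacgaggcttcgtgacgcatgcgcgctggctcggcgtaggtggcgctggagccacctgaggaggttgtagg
Tra2a: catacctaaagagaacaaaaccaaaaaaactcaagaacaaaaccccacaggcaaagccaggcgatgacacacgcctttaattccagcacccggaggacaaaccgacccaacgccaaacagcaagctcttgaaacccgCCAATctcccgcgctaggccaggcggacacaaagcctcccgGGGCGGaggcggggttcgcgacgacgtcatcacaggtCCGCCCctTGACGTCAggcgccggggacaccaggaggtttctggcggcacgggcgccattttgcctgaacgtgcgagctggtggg
The response element was in 5.41% of the 37 promoters (2) and in 3.64% of the 10209 tested genes with a promoter entry. The GC box was in 73.0% and 69.1% and the CCAAT box in 51.4% and 43.3%, and the ETS site CCGGAAG in 24.3% and 20.0%, in the same order. A match of letters is not a bound site. Of the 2 genes with the element, Clk4 was called lower in hM3Dq than in mCherry cells at 3 days without mCherry 3, and Tra2a was not called.

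The 39 genes shared features that had no part in their choice. A transcript annotated as retaining an intron was present for 34 of 39 (87.2%), against 59.1% of the genes tested at 3 days, and one annotated as a target of nonsense-mediated decay for 33 (84.6%), against 28.8%. The 39 genes also had more annotated transcripts of any kind, with a median of 11 against 5 in the genes tested. The part of that number in the 2 shares was not tested. Without mCherry 3, the median log2 fold change was -0.20 for the 22 genes with 3 or more retained-intron transcripts, -0.06 for the 12 with 1 to 2 and -0.10 for the 5 with none. Over all genes those medians were -0.04, 0.02 and 0.03. The median GC content was 44.6% in the 39 genes and 50.1% in the genes tested. With all 6 libraries, fold changes of all genes were higher at higher GC content, the medians being -0.11 below 45% GC and 0.06 at 50% or more. Without mCherry 3 the 2 medians were 0.03 and -0.01. Among the 39 genes without mCherry 3, the median was -0.11 in the 20 below 45% GC, where 16 were below 0. It was -0.27 in the 10 between, with 9 below 0, and -0.20 in the 9 at 50% or more, all 9 below 0. Over all genes 1235 of 2978, 1416 of 3279 and 3432 of 6467 were below 0, in the same order. The part of GC content in the result was not tested.

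**Figure D4:**
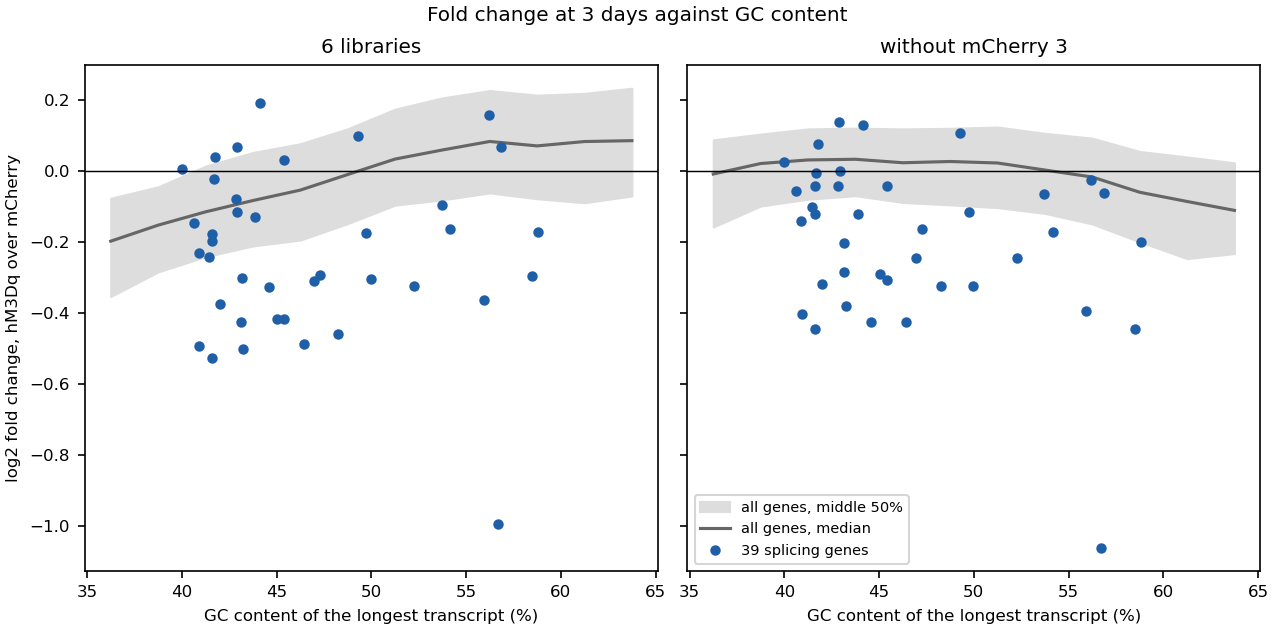
Log2 fold change of hM3Dq over mCherry at 3 days against GC content of the longest transcript, with all 6 libraries (left) and without mCherry 3 (right); points are the 39 genes, the line and band the median and middle 50% of all genes in GC bins. The line climbs from -0.20 to 0.09 in the left panel and ends at -0.11 in the right one, and most points lie below it in both.

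Other splicing genes were read from 5 lists. With all 6 libraries edgeR called none of them, and with GC offsets 3 of the 26 SR-related genes were lower (Arglu1, Nktr and Ccnl2). Without mCherry 3 the counts differed from list to list. Of 26 SR-related proteins and kinases, 10 were lower and 0 higher, with a median of -0.18, among them Rsrp1 (-0.36 ± 0.07), Nktr (-0.36 ± 0.07) and Ccnl2 (-0.33 ± 0.07; edgeR adjusted p of 0.00462, 0.00754 and 0.00591). Of 42 core spliceosome genes, 1 was lower, the helicase gene Ddx46 (-0.44 ± 0.12, edgeR adjusted p = 0.0373), and 1 higher, the Sm protein gene Snrpd3 (0.25 ± 0.07, edgeR adjusted p = 0.032), with a median of 0.02. Among 25 other hnRNPs and related proteins, 3 were lower and 0 higher, with Fubp1 (-0.38 ± 0.06) and Ewsr1 (-0.18 ± 0.05) among the 3 (edgeR adjusted p of 0.00134 and 0.0476). Of 23 tested tissue-specific regulators, 5 were lower, including Cirbp (-0.46 ± 0.09), and of 14 genes of nonsense-mediated decay and the exon junction 1 was lower, Smg1 (-0.22 ± 0.06). These counts stand beside the 5.58% of all genes called lower and the 4.15% called higher without mCherry 3. The lists too were chosen with earlier results of these data known, so the counts are descriptive.

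Other measures at 3 days are given here beside the splicing genes. Ribosomal protein mRNAs had a median log2 fold change of 0.39 with all libraries and 0.10 without mCherry 3 (26 of 28 above 0 in both). Cell cycle genes had medians of -0.39 and -0.15. The 9 neuronal markers summed to 118 to 122 CPM in hM3Dq and 137 to 172 CPM in mCherry libraries, with Rbfox3 and Gad1 at 0 in both groups and 1 of the 9 passing the filter. Sums were 7.27 to 9.26 CPM in hM3Dq and 4.31 to 7.64 CPM in mCherry libraries for 8 microglial markers, with Cx3cr1, P2ry12, Itgam, Trem2 and C1qa at 0 in both groups. For 8 oligodendrocyte markers the sums were 27.1 to 28.5 CPM in hM3Dq and 26.6 to 30.1 CPM in mCherry libraries, with Olig1, Olig2 and Sox10 at 0 in both groups. For 6 endothelial markers they were 61.9 to 64.9 CPM in hM3Dq and 61.0 to 72.7 CPM in mCherry libraries, with Cdh5, Cldn5 and Kdr at 0 in both groups. Without mCherry 3, edgeR called 4 of 14 astrocyte markers higher and 0 lower, 1 of 8 tested fibroblast and mural markers higher and 1 lower, and 2 of 14 tested immediate-early genes higher and 5 lower. Of 10 nuclear-retained RNAs, 2 were in the tables and 1 passed the filter, Snhg11. It had 22.6, 22.7 and 18.8 CPM in hM3Dq libraries, against 42.0, 34.7 and 41.8 CPM in mCherry libraries. The groups did not overlap, and the log2 fold change of Snhg11 was -0.82 ± 0.10 without mCherry 3 and -0.79 ± 0.11 with GC offsets and all 6 libraries (edgeR adjusted p = 0.00043 and 0.0286). The part of these measures in the result was not tested.

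At 90 min, hM3Dq was compared with EGFP, both with DCZ, to ask how cells with the receptor differ from cells without it once the ligand is given. None of the 39 genes was called, against 0.788% of the 13584 genes tested, where 13 of 15 immediate-early genes were called higher. The splicing genes lay slightly above EGFP, with a median log2 fold change of 0.11 (-0.00 over all genes). Of the 39, 32 were above 0 (82.1%, against 49.0% of all genes), including all 10 SR proteins and both Tra2 proteins. Unadjusted p was below 0.05 in 1 of the 39 and in 1078 of the 13584 genes tested. Every hM3Dq library lay above every EGFP library for 3 genes, or 7.69% (6.06% of all genes), namely Srsf2, Srsf7 and Hnrnpu.

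Hnrnpu, a nuclear matrix-bound hnRNP, had 659.5, 667 and 673 CPM in hM3Dq libraries, against 501, 619 and 619.9 CPM in EGFP libraries. The groups did not overlap, and EGFP 1 was far below the other controls. Its log2 fold change was 0.24 ± 0.10, with an edgeR adjusted p of 0.616. Srsf5 had 356.5, 383 and 402 CPM in hM3Dq libraries, against 247, 346 and 358 CPM in EGFP libraries, a log2 fold change of 0.30 ± 0.14 (edgeR adjusted p = 0.63). Tra2a had 84.1, 93.3 and 111 CPM in hM3Dq libraries, against 79.3, 80.5 and 91.6 CPM in EGFP libraries, a log2 fold change of 0.23 ± 0.11 (edgeR adjusted p = 0.652). Both genes overlapped between the groups, EGFP 1 again being the lowest library. Without EGFP 1, rM3Ds 2 and rM3Ds 3 the log2 fold changes were 0.14 for Hnrnpu, 0.15 for Srsf5 and 0.19 for Tra2a. With the replicate number as a block, 66 of all genes were called higher and 0 lower (103 and 4 without the block), and 0 of the 39. Ribosomal protein genes also lay above EGFP, with a median of 0.10 and 27 of 28 above 0. For cell cycle genes the median was -1.48 in the full fit and 0.23 without EGFP 1, rM3Ds 2 and rM3Ds 3, and their sum was 223 to 291 CPM in hM3Dq libraries, against 1139 CPM in EGFP 1 and 228 and 243 CPM in the other EGFP libraries. For hM4Di against EGFP the medians were 0.23 for ribosomal protein genes and -0.64 for cell cycle genes (1.13 without the 3 libraries). The part of these measures in the result was not tested. Leaving out EGFP 1 brought the median of the 39 to 0.06, with 24 above 0 and none with an unadjusted p below 0.05.

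For rM3Ds against EGFP none of the 39 genes was called (0.0147% of all genes). Their median was -0.03, with 16 above 0 (45.5% of all genes). Without EGFP 1, rM3Ds 2 and rM3Ds 3 the median was 0.05, with 26 above 0, but only rM3Ds 1 then stood for its group. In rM3Ds 1, 37 of the 39 genes lay above their means over the 90-min libraries. Hnrnpm had the smallest p. It had 164, 159 and 151 CPM in rM3Ds libraries, against 149.5, 144 and 136.5 CPM in EGFP libraries. The groups did not overlap, and the log2 fold change was 0.13 ± 0.07 (edgeR adjusted p = 1). Srsf10 was at -0.14 ± 0.10 and Srsf11 at -0.11 ± 0.10 (edgeR adjusted p = 1 for both). The rM3Ds libraries 2 and 3, which stood apart, lay below rM3Ds 1 for both genes. Without EGFP 1, rM3Ds 2 and rM3Ds 3 the log2 fold change of Srsf10 was 0.0094, from rM3Ds 1 alone in its group.

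For hM4Di against EGFP no gene was called, of the 39 or of all (0.0%). At an unadjusted p below 0.05, 2 of 39 and 745 of all genes passed, and DESeq2 called 0 of 39. The median was -0.09 (-0.01 over all genes), with 29 of 39 below 0 (74.4%, against 52.1% of all genes). Among the 29 were all 4 U1-associated and all 5 speckle and RBM genes. In 3 of 39 genes (7.69%) every hM4Di library lay below every EGFP library (4.03% of all genes), namely Srsf10, Clk2 and Luc7l2. Clk2 had 29.1, 31.3 and 31.1 CPM in hM4Di libraries, against 35.1, 35.4 and 36.4 CPM in EGFP libraries, with almost no spread among the controls. Its log2 fold change was -0.24 ± 0.09, that of Luc7l2 -0.27 ± 0.10 and that of Son -0.31 ± 0.15 (edgeR adjusted p = 0.833 for the 3 genes). Luc7l2 had 195, 191 and 177 CPM in hM4Di libraries, against 196, 239.6 and 235 CPM in EGFP libraries, where EGFP 1 was close to the hM4Di libraries. Son had 449.5, 378 and 314 CPM in hM4Di libraries, against 407, 515 and 479.5 CPM in EGFP libraries, with overlap. The lowest libraries were not the same ones across genes: hM4Di 1 held most SR proteins and hnRNPs at their lowest, and hM4Di 3 held Son and Srrm2 at theirs. The median of the 39 was -0.02 without hM4Di 1 and -0.16 without EGFP 1, rM3Ds 2 and rM3Ds 3.

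**Figure D5:**
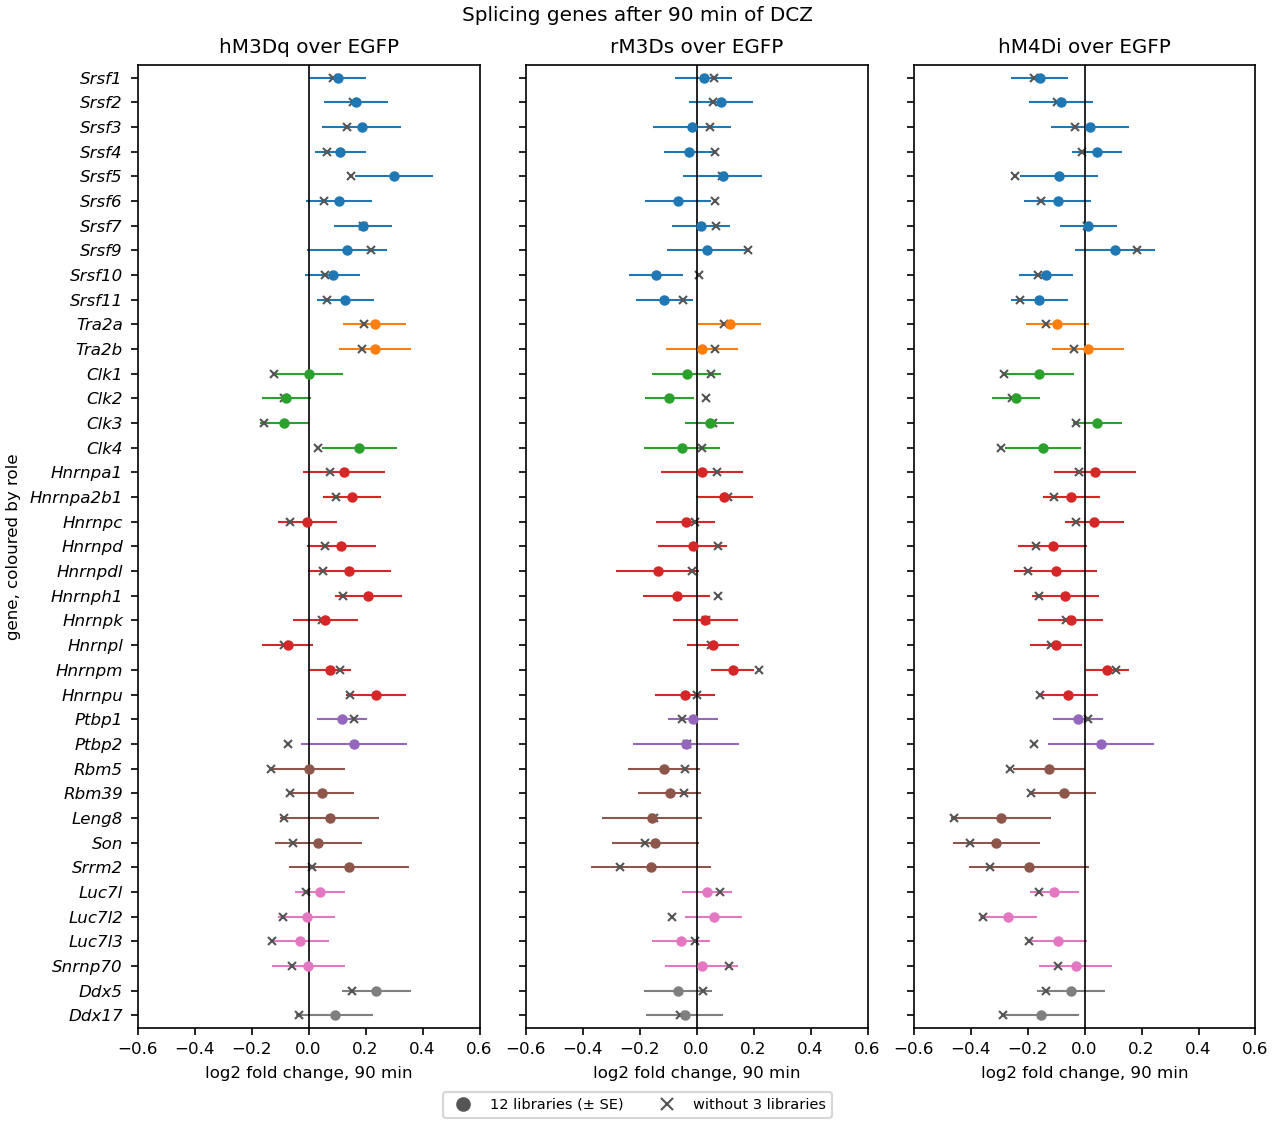
Log2 fold change over EGFP at 90 min of the 39 genes, coloured by role, for hM3Dq, rM3Ds and hM4Di. Circles (± SE) are from 12 libraries and crosses from fits without EGFP 1, rM3Ds 2 and rM3Ds 3. Crosses in the rM3Ds panel rest on rM3Ds 1 alone in its group. Medians of the circles are 0.11, -0.03 and -0.09 from left to right, and in the hM3Dq panel most crosses lie left of their circle.

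Differences between receptors were tested in the same fit. DESeq2 called none of the 39 genes in any of the 6 comparisons at 90 min. Between hM3Dq and hM4Di none of the 39 genes was called (0.802% of all genes). Their median was 0.20, with 36 above 0 and 11 at an unadjusted p below 0.05. No share over all genes is given here for the 36 and the 11, so they are not read as a trait of these genes. Without hM4Di 1 the median was 0.11. Every hM3Dq library was above every hM4Di library in 9 of 39 genes (23.1%, against 8.56% of all genes). The opposite order held for 1, Clk3 (2.56%, against 12.4% of all genes). Tra2a had 84.1, 93.3 and 111 CPM in hM3Dq libraries, against 69.2, 84.0 and 85.1 CPM in hM4Di libraries, with the groups overlapping. It had the smallest p, at a log2 fold change of 0.33 ± 0.11, ahead of Srsf11 at 0.29 ± 0.10 and Srsf5 at 0.39 ± 0.14 (edgeR adjusted p = 0.264, 0.284 and 0.293). Between hM3Dq and rM3Ds the median was 0.13 and none was called (0.67% of all genes). The smallest p were those of Hnrnpu at 0.28 ± 0.10, Ddx5 at 0.30 ± 0.12 and Srsf11 at 0.24 ± 0.10 (edgeR adjusted p = 0.274, 0.299 and 0.311). Without the 3 libraries that stood apart, with rM3Ds 1 alone in its group, the median was 0.01. Hnrnpu, Ddx5 and Srsf11 were then at 0.14, 0.13 and 0.11. Between rM3Ds and hM4Di none of the 39 was called (0.0147% of all genes). The median was 0.18 without the 3 libraries that stood apart, with rM3Ds 1 alone in its group, and 0.04 with all libraries. Luc7l2 had the smallest p there, with 225, 221 and 258 CPM in rM3Ds libraries, against 195, 191 and 177 CPM in hM4Di libraries. The groups were apart, and the log2 fold change was 0.33 ± 0.10 (edgeR adjusted p = 0.301), with Tra2a at 0.21 ± 0.11 and Srsf1 at 0.18 ± 0.10 next (edgeR adjusted p = 0.553 and 0.574).

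Whether the hM3Dq effect differed between 3 days and 90 min was tested as an interaction, each effect taken against its own control. The 2 times differ in control protein, EGFP at 90 min and mCherry at 3 days, so time and control cannot be told apart. The difference, 3 days minus 90 min, was below 0 in 36 of 39 genes, with a median of -0.29 (0.02 over all genes), and edgeR called none (0.396% of all genes). DESeq2 called 4 of 39 (Srsf2, Hnrnpdl, Hnrnph1 and Leng8) and edgeR with GC offsets called 2 (Srsf2 and Hnrnpdl). Hnrnpdl had 164, 177 and 188 CPM in hM3Dq and 142, 172 and 177 CPM in EGFP libraries at 90 min. Its hM3Dq mean was 176 CPM at 90 min and lower at 3 days, at 146 CPM. The control mean was 164 CPM in EGFP at 90 min and higher in mCherry at 3 days, at 209 CPM. Both sides thus enter the difference for Hnrnpdl, which at -0.62 ± 0.14 had the smallest p (edgeR adjusted p = 0.0966). Srsf2, at 186, 193 and 192 CPM in hM3Dq and 171, 179 and 172 CPM in EGFP libraries at 90 min, was above its control at the first time and below it at the second. The difference for Srsf2 was -0.46 ± 0.10, and that for Leng8 -1.06 ± 0.26 (edgeR adjusted p = 0.107 and 0.133). Without mCherry 3, Srsf2 was called at -0.48 ± 0.08 (edgeR adjusted p = 0.0329), alone of the 39, where 0.538% of all genes were called lower. That call was lost with the replicate block (edgeR adjusted p = 0.225) and without the filter on low counts, where 0 of the 39 were called.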

How the data were processed

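Bulk RNA-seq of poly-A enriched RNA from 18 libraries was used, 12 at 90 min and 6 at 3 days. Per gene, the authors deposited estimated counts without normalisation. Tools named in the submitters' processing notes are Salmon 1.8.0 and fastp 0.23.4, and the build named there is mm39, with no role or order given. How transcripts were summed to genes, the handling of pseudogenes and the use of strand are not given in the sources used here, so genes with near-identical copies, such as Hnrnpa1, are uncertain. All values were rounded to whole numbers; fractions made up 55.9% of the 90-min values and 30.5% of those at 3 days. Entrez identifiers were matched to symbols for 99.5% of 22078 genes and all 39 members, the splicing genes described above.

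Quasi-likelihood tests were run in edgeR 4.0.16 under R 4.3.3 with robust fits, TMM factors and the default filter on low counts. Adjustment followed Benjamini and Hochberg across every gene in the test, and genes with an adjusted p under 0.05 were called. The 4 groups at 90 min shared a fit with 8 residual degrees of freedom, the 3-day groups had 4, and the interaction over 12 libraries had 8. DESeq2 1.42.0 was an alternative. CPM are counts scaled by each library's total, without TMM factors; intervals are not given, and 3 counts in a library correspond to 0.119 to 0.187 CPM. GC content, length and transcript types come from GENCODE vM21 (GRCm38), with GC and length of the longest protein-coding transcript, and GC offsets are lowess curves (span 0.3) per library. Members and lists were chosen with earlier results of these data known. Values and tests are given for called genes (8 at most, by smallest p) or, with fewer than 3 called, for the 3 smallest p; of each other list at most 3 called genes. Other genes were named after their values were seen. The fits were tested on simulated counts. Alternatives were other size factors, no filter, the replicate number as a block, GC offsets and leaving out libraries; those that combine the loss of mCherry 3 with another change were added after seeing the data. A gene of the list of other hnRNPs is not reported here.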

Additional observations from a re-analysis of the deposited data

How the results depend on the processing

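No member was called at 90 min under any alternative run. At 3 days, 0 of 39 were called with DESeq2 size factors, without a filter, with the replicate block and without any 1 library other than mCherry 3 (range 0 to 15 over the 6 libraries). The count was 4 with DESeq2's test, 9 with GC offsets and 6 with the replicate block and GC offsets. In fits without mCherry 3, chosen after seeing the data, it was 16 with DESeq2 size factors, 14 with DESeq2's test, 16 without a filter, 16 with the replicate block (15 lower and 1 higher, Hnrnpc) and 17 with GC offsets. Without mCherry 3 and 1 further library it was 4 to 17, lowest without mCherry 1 and highest without mCherry 2. Of the 15 called without mCherry 3, 8 were among the 9 with GC offsets, 3 among the 4 with DESeq2 and all 6 of the block with GC offsets. For the interaction the count was 4 with DESeq2's test, 2 with GC offsets and 1 with the replicate block and GC offsets; without mCherry 3 it was 1 with DESeq2 size factors, 6 with DESeq2's test, 2 with GC offsets, 0 without a filter and 0 with the replicate block, and leaving out 1 library gave 0 to 1. Srsf10 in rM3Ds against EGFP was at 0.0094 without EGFP 1, rM3Ds 2 and rM3Ds 3, where rM3Ds 1 alone remained in its group. With them it was at -0.14, not called. The cause of these changes was not tested. Calls over all genes also depended on the tool: DESeq2 called 197 higher and 35 lower for hM3Dq against EGFP (edgeR 103 and 4), 51 and 4 for rM3Ds against EGFP (edgeR 2 and 0), 14 and 14 for hM4Di against EGFP (edgeR 0 and 0), 260 and 203 for hM3Dq against rM3Ds (edgeR 77 and 14), 339 and 85 for hM3Dq against hM4Di (edgeR 102 and 7), 135 and 70 for rM3Ds against hM4Di (edgeR 2 and 0) and 31 and 171 for the interaction (edgeR 2 and 51). GC offsets gave 110 higher and 173 lower at 3 days and 11 and 116 for the interaction. What the replicate numbers stand for is not given. Deviations of same-numbered libraries correlated at only 0.0221 to 0.041 at 3 days, with 0 of 3 over 0.1. All 6 libraries there correlated best with their own number, and at 90 min 3 of 12 did. Deviations were centred within each group of 3 libraries, so these matches are not independent and cannot show whether same-numbered libraries belong together. At 90 min the correlations were -0.76 to 0.37, with 7 of 18 over 0.1, among them all 3 of hM3Dq with EGFP (0.123 to 0.163). All 39 members had at least 23.6 CPM in every library, and the number of libraries, 3 a group, limits the precision.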
